A study of Mus musculus with 12 samples.

Results

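Bile acids are made from cholesterol in hepatocytes. In the classical pathway Cyp7a1 catalyzes the rate-limiting step, and Cyp8b1 is needed to make cholic acid, so it sets the kind of bile acid produced. In the alternative pathway Cyp27a1 and Cyp7b1 act on oxysterols. Hsd3b7 and Akr1d1 then rebuild the sterol rings, and Slc27a5 and Baat activate the acids and join them to taurine or glycine. Bile acids bind the nuclear receptor FXR, encoded by Nr1h4. FXR induces Nr0b2, whose product SHP represses Cyp7a1 and Cyp8b1, and in the ileum FXR induces Fgf15, a hormone that lowers Cyp7a1 in the liver.

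These 10 genes were chosen by name and all were found by gene symbol among the 23997 genes of a table of liver mRNA, and all 10 were among the 10545 genes that passed a filter on low values and were tested. Livers came from 12 male C57BL/6 wild-type mice with 3 in each of 4 groups. NCD mice ate a normal control diet, NCD+CUR mice ate it with curcumin (CUR, a polyphenol of turmeric) at 0.4% of its weight, HFHSD mice ate a high-fat high-sugar diet, and HFHSD+CUR mice ate that diet with the same share of CUR. The diets lasted 15 weeks, and the RNA came from the left lateral lobe. By their labels, replicate 3 of NCD and of NCD+CUR was 107 weeks old and the other 10 mice were 99 weeks old, whereas the series description gives younger ages. Levels are in FPKM, that is, fragments scaled to the length of the transcript and to the mapped fragments of the library, so they can be compared between genes.

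The liver label was checked with 12 hepatocyte markers, whose summed level was between 80537 and 102219 FPKM in the 12 livers. Of 5 ileum markers 3 were listed at 0 in each liver, Fgf15 and Fabp6 among them, Vil1 was at most 0.260 FPKM, and Slc10a2, which cholangiocytes also express, was 3.71 to 13.7 FPKM. Between 10192 and 10721 genes reached 1 FPKM in a library, and the mean correlation of a library with the remaining 11 ran from 0.952 in HFHSD+CUR replicate 3 to 0.969. Rn45s, a ribosomal RNA precursor without a poly(A) tail, ranged from 82.9 FPKM to 16271 FPKM, and it was highest in HFHSD+CUR replicate 1. An FPKM value does not keep the number of fragments behind it, and its counting error is therefore unknown. In whole liver RNA, fewer hepatocytes and less of an mRNA per hepatocyte cannot be told apart.

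By their mean over the 12 livers, Slc27a5 had the highest level (403 ± 83.7 FPKM, SD, n = 12), followed by Cyp27a1 (229 ± 32.9 FPKM), Hsd3b7 (189 ± 36.8 FPKM), Baat (128 ± 12.9 FPKM), Cyp8b1 (113 ± 73.1 FPKM), Nr1h4 (94.6 ± 13.5 FPKM), Cyp7b1 (54.6 ± 11.8 FPKM), Akr1d1 (52.5 ± 18.6 FPKM), Cyp7a1 (40.2 ± 23.2 FPKM) and Nr0b2 (26.4 ± 10.3 FPKM). Slc27a5 stood apart from the rest, whereas most neighbors in this order, such as Cyp7b1 and Akr1d1, differed by less than their spread. The most variable gene was Cyp7a1, with a highest level 14.6 times the lowest, and the least variable was Baat at 1.39 times.

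Promoter sequence is shown to let the reader see the start sites of genes that rose with HFHSD. The 3 genes shown are those with the clearest differences that were in the set of promoters at hand. That set was drawn from RefSeq for GRCm38.p6. Each line gives the 250 bases before the annotated start, 5′ to 3′ on the strand of the gene, and capitals mark motif letters found by a search on both strands. The motifs were partly chosen after the sequences were seen. Cyp8b1 is at chr9:121914356-121916305 on the minus strand and has 1 exon, Nr0b2 is at chr4:133553376-133556536 on the plus strand, and Akr1d1 is at chr6:37530173-37568815 on the plus strand.
Cyp8b1 (chr9:121916306-121916555, minus strand): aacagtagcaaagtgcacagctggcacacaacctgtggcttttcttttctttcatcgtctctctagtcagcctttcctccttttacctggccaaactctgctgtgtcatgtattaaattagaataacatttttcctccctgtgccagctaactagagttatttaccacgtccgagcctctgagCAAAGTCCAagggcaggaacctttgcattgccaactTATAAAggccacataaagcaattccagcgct
Nr0b2 (chr4:133553126-133553375, plus strand): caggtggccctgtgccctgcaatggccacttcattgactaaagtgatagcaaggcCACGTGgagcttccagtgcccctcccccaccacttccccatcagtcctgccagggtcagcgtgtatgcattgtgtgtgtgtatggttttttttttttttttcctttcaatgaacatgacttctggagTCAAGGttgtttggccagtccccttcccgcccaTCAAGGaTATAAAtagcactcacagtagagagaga
Akr1d1 (chr6:37529923-37530172, plus strand): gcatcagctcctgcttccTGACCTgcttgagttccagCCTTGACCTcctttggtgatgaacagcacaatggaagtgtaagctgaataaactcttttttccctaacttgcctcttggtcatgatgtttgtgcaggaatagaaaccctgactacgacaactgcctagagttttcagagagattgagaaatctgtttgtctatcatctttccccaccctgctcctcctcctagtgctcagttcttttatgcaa
In Cyp8b1, TATAAA begins 31 bases before the start and CAAAGTCCA, letters known from binding sites of HNF4, begins 67 bases before it. In Nr0b2, TATAAA begins 28 bases before the start, TCAAGG, the core of sites bound by LRH-1 (Nr5a2), begins 68 and 35 bases before it, and CACGTG, an E-box, begins 195 bases before it. The Akr1d1 window holds AGGTCA, a core sequence bound by many nuclear receptors, on the other strand 232 and 210 bases before the start, and TCAAGG on that strand at 213 bases, overlapping the nearer AGGTCA. Among the same windows of 27025 genes, 14.3% hold TATAAA, 14.1% TCAAGG, 0.451% CAAAGTCCA, 15.8% AGGTCA and 6.86% CACGTG. A match describes letters and is not evidence of binding. The inverted repeat of AGGTCA spaced by 1 base, which FXR and its partner RXR can bind, is held by 2 of the 27025 windows and by 0 of the 6 members with an entry, and nothing about FXR follows from that.

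The HFHSD comparison asks how the rich diet altered these genes. Nr0b2, Cyp8b1, Akr1d1, Slc27a5 and Cyp27a1 rose with HFHSD when the diet difference was averaged over the groups without and with CUR, by 1.21-fold to 2.51-fold. Cyp7a1 had the highest fitted difference, 3.26-fold, but did not pass, and its chow livers differed widely among themselves. This average was added after the separate comparisons had been seen.

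The bile-acid-induced repressor Nr0b2 was 13.1, 19.4 and 21.3 FPKM in the NCD livers and 11.9, 18.5 and 26.3 FPKM in the NCD+CUR livers. It was 23.1, 44.8 and 33.7 FPKM in the HFHSD livers and 35.5, 38.0 and 31.2 FPKM in the HFHSD+CUR livers. The 3 HFHSD livers were all above the 3 NCD livers, and the 3 HFHSD+CUR livers were all above the 3 NCD+CUR livers, whereas over 6 against 6 livers HFHSD replicate 1 fell within the chow range. Nr0b2 rose with HFHSD by 0.92 on the log2 scale (standard error 0.21, adjusted p = 0.0193 by limma).

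Cyp8b1, which directs synthesis toward cholic acid, was 40.2, 66.6 and 65.7 FPKM in NCD and 52.3, 68.8 and 72.3 FPKM in NCD+CUR livers. In HFHSD it was 65.1, 187 and 251 FPKM, and in HFHSD+CUR it was 99.95, 221 and 169 FPKM. One HFHSD liver, replicate 1, lay within the range of the chow livers, and the other 5 rich-diet livers lay above it. Cyp8b1 rose by 1.33 on the log2 scale (standard error 0.33, adjusted p = 0.0293 by limma), or 2.51-fold.

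Akr1d1, the reductase of the sterol ring, was 52.7, 31.1 and 59.0 FPKM in NCD, 39.4, 27.2 and 42.2 FPKM in NCD+CUR, 70.9, 68.3 and 93.0 FPKM in HFHSD, and 49.2, 56.2 and 41.3 FPKM in HFHSD+CUR. Every HFHSD liver was above every NCD liver, and the HFHSD+CUR livers overlapped NCD+CUR. Akr1d1 rose with HFHSD by 0.59 (standard error 0.17, adjusted p = 0.0397 by limma).

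Slc27a5, the ligase that activates bile acids, was 365, 322 and 431 FPKM in NCD, 343, 310.2 and 344 FPKM in NCD+CUR, 458, 465 and 602 FPKM in HFHSD, and 459.9, 383 and 351 FPKM in HFHSD+CUR. The HFHSD livers were all above the NCD livers and the HFHSD+CUR livers were all above the NCD+CUR livers. Slc27a5 rose by 0.35 (standard error 0.11, adjusted p = 0.0467 by limma). Cyp27a1, which opens the alternative pathway and oxidizes the side chain, was 194, 187 and 234 FPKM in NCD, 208, 188 and 230.4 FPKM in NCD+CUR, 217, 241 and 265 FPKM in HFHSD, and 255, 232 and 296 FPKM in HFHSD+CUR. It rose by 0.28 (standard error 0.10, adjusted p = 0.0765 by limma), with overlap between HFHSD and NCD but none between HFHSD+CUR and NCD+CUR.

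Averaged over CUR, 5 of the 10 genes rose and 0 fell, against 20.5% of the 10545 tested genes that passed in either direction. Of all tested genes, 10.5% passed as higher. At an unadjusted p under 0.05 the counts were 8 of 10 genes and 29.6% of all tested genes. The median log2 difference of the 10 genes was 0.31. In each separate diet comparison 0 of 10 passed, while 4 of 10 without CUR and 3 of 10 with CUR had an unadjusted p under 0.05. Passing genes made up 4.61% of all tested genes without CUR and 3.61% with CUR, and 18.7% and 17.5% had an unadjusted p under 0.05.

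All 10 genes were higher in HFHSD than in NCD and all 10 were higher in HFHSD+CUR than in NCD+CUR, with medians of 0.40 and 0.29 on the log2 scale against 0.03 and 0.01 over all tested genes. Groups did not overlap for 4 genes without CUR (Akr1d1, Baat, Slc27a5 and Nr0b2) and for 4 genes with CUR (Cyp8b1, Cyp27a1, Slc27a5 and Nr0b2), against 12.5% and 11.4% of all tested genes that were higher with no overlap. The adjusted p of Nr0b2 was 0.149 without CUR and 0.145 with CUR, and that of Cyp8b1 was 0.160 and 0.198 (limma). When same-numbered livers of every group were joined in a block, 3 of 10 rose without CUR (Nr0b2, Cyp8b1 and Akr1d1), against 8.31% of all tested genes. With CUR 2 of 10 rose (Nr0b2 and Cyp8b1), against 7.57%. Such a block also pairs livers across diets, where same-numbered correlations were 0.00341, 0.0428 and 0.236 between NCD and HFHSD. Between NCD+CUR and HFHSD+CUR they were 0.0189, -0.0721 and 0.0990. Numbers were not found to pair across diets, so no conclusion is drawn from these block counts.

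Libraries with the same replicate number within a diet resembled each other, so the 6 livers of a diet may not be independent. With a shared correlation of 0.387 between such libraries, Nr0b2 (adjusted p = 0.0428), Cyp8b1 (adjusted p = 0.0582) and Akr1d1 (adjusted p = 0.0901) passed in limma and Slc27a5 and Cyp27a1 did not, so 3 of 10 passed against 11.2% of all tested genes. Slc27a5 also no longer passed when 1 of 3 livers was left out (adjusted p = 0.105 to 0.114), NCD+CUR replicate 2, HFHSD replicate 3 and HFHSD+CUR replicate 1. Cyp27a1 was lost without any one of 8 livers (adjusted p = 0.116 to 0.184), NCD replicates 1 and 2, NCD+CUR replicates 1 and 2, HFHSD replicates 2 and 3, and HFHSD+CUR replicates 1 and 3.

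**Figure D1:**
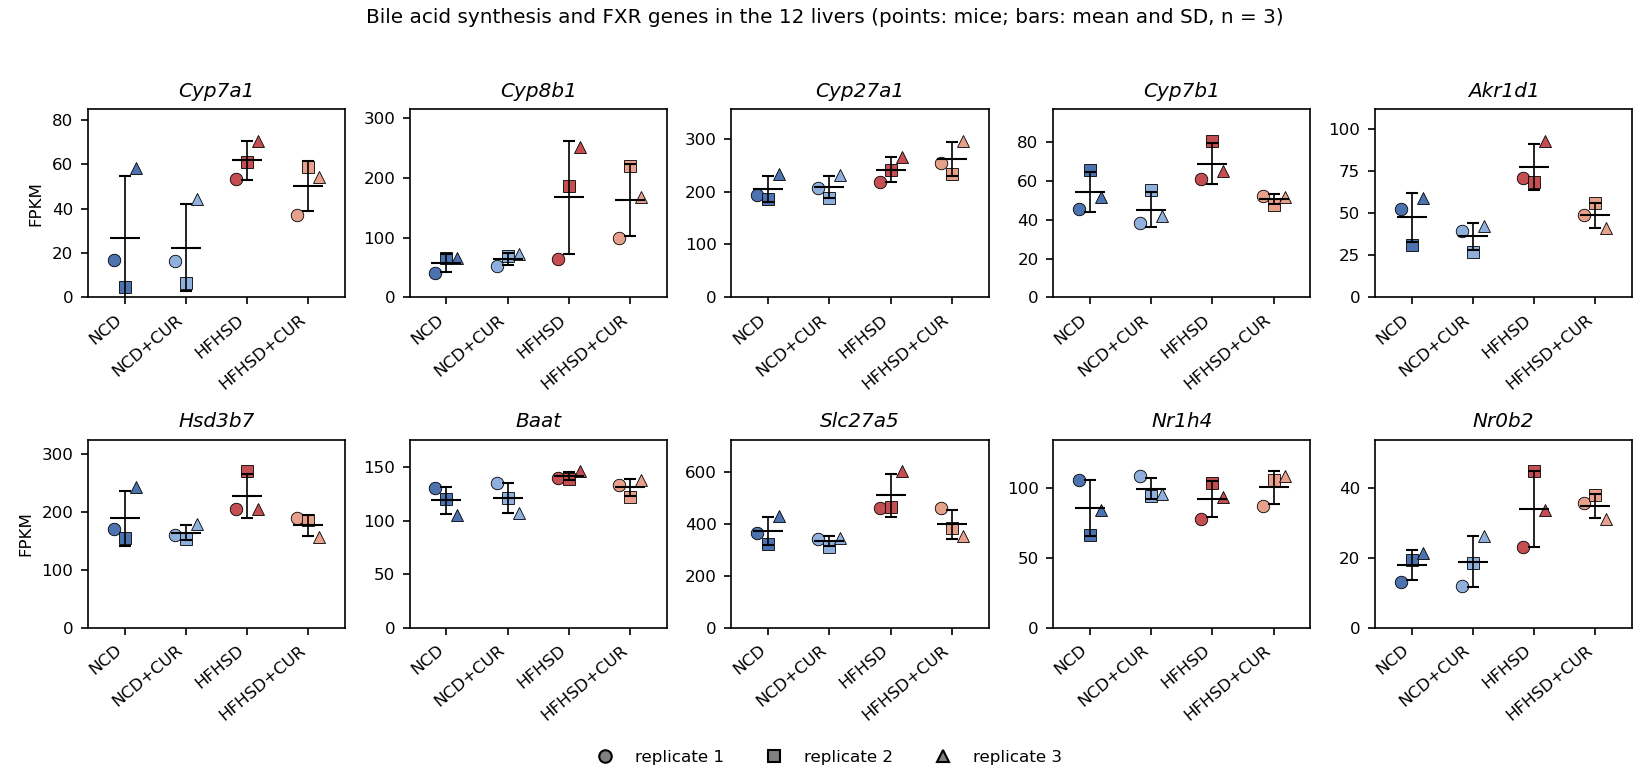
Level in FPKM (y axis, from 0) of each gene in each liver by group (x axis), with marker shapes for replicate numbers and bars for the mean and SD of 3 livers (the lower Cyp7a1 bar in NCD runs below the axis). The Cyp7a1 livers on chow run from 4.83 to 58.4 FPKM, whereas all 6 livers on HFHSD lie between 37.3 and 70.6 FPKM.

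Cyp7a1 was set apart by how it varied among the chow livers. It was 16.7, 4.83 and 58.4 FPKM in NCD and 16.5, 6.35 and 44.4 FPKM in NCD+CUR livers for replicates 1, 2 and 3. The ratio of the highest to the lowest was 12.1 over these 6 chow livers. The level thus differed far more between replicate numbers than between NCD and NCD+CUR, and in both groups replicate 2 was lowest and replicate 3 was highest.

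On HFHSD the gene was 53.3, 61.2 and 70.6 FPKM without CUR and 37.3, 58.6 and 54.2 FPKM with CUR. The ratio of the highest to the lowest was 1.89 over these 6 livers. Chow replicate 3 alone reached the HFHSD range, and the other 4 chow livers were below every rich-diet liver.

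Of the variation of Cyp7a1 within the 2 chow groups, 98.5% followed the replicate number, compared with a median of 73.1% over all tested genes. The shares for Cyp7b1 and Baat were 99.8% and 99.5%. Within the HFHSD groups the share was 83.4% for Cyp7a1, 93.5% for Nr1h4 and 2.97% for Akr1d1, against a median of 64.5%. These shares are descriptions, since neither the labels nor the methods say what a replicate number stands for.

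Cyp7a1 differed by 1.86 on the log2 scale between HFHSD and NCD (95% interval -0.22 to 3.94, adjusted p = 0.314 by limma) and by 1.55 between HFHSD+CUR and NCD+CUR (adjusted p = 0.414). Averaged over CUR the difference was 1.70 (standard error 0.64, adjusted p = 0.120). The 107-week mice are chow replicate 3 of each group, so in the chow groups the age on the label cannot be told apart from the replicate number. With age as a covariate the average difference was 2.50 (adjusted p = 0.00264), and without NCD replicate 3 the difference between HFHSD and NCD was 2.75 (adjusted p = 0.0732).

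The ratio of Cyp7a1 to Cyp7b1, a rough comparison of the classical with the alternative pathway, was 0.369, 0.0735 and 1.13 in NCD and 0.433, 0.115 and 1.06 in NCD+CUR livers. It was 0.876, 0.760 and 1.08 in HFHSD and 0.715, 1.23 and 1.05 in HFHSD+CUR livers. The lowest ratios belonged to replicate 2 of both chow groups, where Cyp7a1 was lowest and Cyp7b1 highest among the chow livers. The ratio of Cyp8b1 to Cyp7a1 ran from 1.13 to 13.8 on chow and from 1.22 to 3.76 on HFHSD.

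Relations among 4 pairs of these genes are given over the 12 livers on the log2 scale as a description, with no test, since the livers fall into diets and same-numbered livers within a diet are not independent. Cyp7a1 and its repressor Nr0b2 had a Pearson r of 0.653 and a Spearman rho of 0.748, and r was 0.832 without the 2 livers farthest from the median of Cyp7a1. Within a diet the values were also positive but lower, with r of 0.315 and rho of 0.429 over the 6 chow livers, and r of 0.129 and rho of 0.371 over the 6 HFHSD livers.

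Cyp7a1 and Cyp8b1 had an r of 0.589 and a rho of 0.664, and r was 0.741 without the 2 farthest livers. Within chow r was 0.0349 and rho was -0.09, whereas within HFHSD r was 0.649 and rho was 0.886. For Nr1h4 with Nr0b2 r was 0.0664 and rho was -0.01. For Cyp7a1 with Cyp7b1 r was 0.0847 and rho was 0.217, and without the 2 farthest livers r was 0.661, so this value depended on those livers.

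The CUR comparisons ask whether curcumin altered these genes on each diet. On HFHSD, Akr1d1 and Cyp7b1 were the 2 genes that fell, and the other 8 did not pass. Cyp7b1, the oxysterol hydroxylase of the alternative pathway, was 60.8, 80.5 and 65.1 FPKM in HFHSD and 52.2, 47.5 and 51.4 FPKM in HFHSD+CUR livers. The HFHSD+CUR livers lay together below all 3 HFHSD livers.

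Cyp7b1 fell by 0.44 on the log2 scale (standard error 0.17, adjusted p = 0.0831 by limma). Akr1d1 fell by 0.66 (standard error 0.24, adjusted p = 0.0712 by limma), and its 3 HFHSD+CUR levels were all below its 3 HFHSD levels given above. These 2 of 10 genes stand against 30.3% of all tested genes that passed in either direction and 17.2% that passed as lower, so the 10 genes passed no more often than all genes. Without HFHSD+CUR replicate 3 the share of all tested genes was 11.6%, without HFHSD replicate 3 it was 16.4% and without HFHSD replicate 2 it was 20%. No overlap was found for 4 lower genes (Cyp7b1, Akr1d1, Hsd3b7 and Baat), against 22.8% of all tested genes, and 3 of 10 had an unadjusted p under 0.05, against 36%.

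Both calls were lost without any one of 5 livers, while the differences stayed between -0.76 and -0.52 for Akr1d1 and between -0.52 and -0.32 for Cyp7b1 over all 12 fits with 1 library left out. Akr1d1 no longer passed without HFHSD replicate 1 (adjusted p = 0.106), 2 (adjusted p = 0.101) or 3 (adjusted p = 0.219), or without HFHSD+CUR replicate 1 (adjusted p = 0.125) or 3 (adjusted p = 0.239). Cyp7b1 no longer passed without HFHSD replicate 2 (adjusted p = 0.260) or 3 (adjusted p = 0.140), or without HFHSD+CUR replicate 1 (adjusted p = 0.122), 2 (adjusted p = 0.158) or 3 (adjusted p = 0.175), all by limma.

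Hsd3b7, the dehydrogenase that follows the first hydroxylation, was 205, 271 and 205 FPKM in HFHSD and 189.7, 186 and 156 FPKM in HFHSD+CUR, a difference of -0.35 (adjusted p = 0.165 by limma). It was 170.2, 154 and 243 FPKM in NCD and 161, 153 and 179 FPKM in NCD+CUR. Slc27a5 had a difference of -0.35 on HFHSD (adjusted p = 0.113), and HFHSD replicate 3 held its highest value. Baat, which joins bile acids to amino acids, was 140.1, 138 and 146 FPKM in HFHSD and 133, 122 and 137 FPKM in HFHSD+CUR (difference -0.11).

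Between NCD and NCD+CUR, 0 of 10 genes passed in limma and 0 had an unadjusted p under 0.05, against 0% of all tested genes at the adjusted threshold and 14% at an unadjusted p under 0.05. Levels overlapped for all 10, whereas 19.6% of all tested genes did not overlap. Cyp7b1 was 45.2, 65.7 and 51.5 FPKM in NCD and 38.1, 55.4 and 42.0 FPKM in NCD+CUR, and its difference was -0.26 (95% interval -0.63 to 0.11, adjusted p = 0.489 by limma). Akr1d1 differed by -0.36 (95% interval -0.88 to 0.16, adjusted p = 0.497), and Cyp7a1 by -0.01 (95% interval -2.09 to 2.07). With the block on replicate number inside the diet, the Cyp7a1 interval was -0.32 to 0.30, and the 3 same-numbered differences were -0.02, 0.39 and -0.40.

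FXR itself, Nr1h4, was 106, 66.2 and 84.4 FPKM in NCD, 109, 94.5 and 96.3 FPKM in NCD+CUR, 78.2, 104 and 94.1 FPKM in HFHSD, and 87.2, 106 and 109 FPKM in HFHSD+CUR. It did not pass in any comparison without a block, with a difference of 0.07 for HFHSD averaged over CUR (adjusted p = 0.758 by limma). Baat, at 130.3, 120.5 and 105 FPKM in NCD and 135, 121 and 107 FPKM in NCD+CUR, differed by 0.19 with the diet (adjusted p = 0.164).

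Livers of the same number were compared directly, since the correlation of their deviations was over 0.1 in every case within a diet (0.300 to 0.527 on chow and 0.156 to 0.350 on HFHSD). This pairing was read from the same expression values and is uncertain on HFHSD. There 0.156 and 0.178 were below the 0.216 of NCD+CUR replicate 1 with HFHSD+CUR replicate 2. The counts and block results that follow depend on the pairing. Akr1d1 and Cyp7b1 were lower with CUR in 6 of 6 numbered livers, as was Hsd3b7, and Nr1h4 was higher in 6 of 6. Over all tested genes, 21.7% were lower in 6 of 6 and 16.9% were higher in 6 of 6. On chow the Cyp7b1 differences were -0.25, -0.24 and -0.29 on the log2 scale, and on HFHSD they were -0.22, -0.76 and -0.34. On chow the Akr1d1 differences were -0.42, -0.19 and -0.48, and on HFHSD they were -0.53, -0.28 and -1.17.

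Blocking on these numbers inside each diet, 4 of 10 genes fell on HFHSD, namely Akr1d1 (adjusted p = 0.00719), Cyp7b1 (adjusted p = 0.0116), Hsd3b7 (adjusted p = 0.0370) and Slc27a5 (adjusted p = 0.0597), all by limma. This stands against 45.7% of all tested genes that passed, so again the share of the 10 was near that of all genes. As a shared correlation in place of the block, 4 of 10 passed on HFHSD against 46.3% and 4 of 10 averaged over diets against 53% of all tested genes. On chow 0 of 10 passed with the block, against 8.16% of all tested genes.

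Averaged over diets, 3 of 10 genes fell with CUR, and 0 rose. Akr1d1 fell by 0.51 on the log2 scale (adjusted p = 0.0412), Cyp7b1 by 0.35 (adjusted p = 0.0448) and Slc27a5 by 0.25 (adjusted p = 0.0912), all by limma, against 37.9% of all tested genes that passed and 20.8% that passed as lower. At an unadjusted p under 0.05 the counts were 4 of 10 and 41%. Akr1d1 was lost without HFHSD+CUR replicate 3 (adjusted p = 0.102), Cyp7b1 without NCD+CUR replicate 1 (adjusted p = 0.103) or HFHSD replicate 2 (adjusted p = 0.105), and Slc27a5 without NCD replicate 1 or 3, any NCD+CUR liver, HFHSD replicate 3 or HFHSD+CUR replicate 2 or 3 (adjusted p = 0.117 to 0.208). With the block 5 passed, against 52.8% of all tested genes: the 3 named and Hsd3b7 (adjusted p = 0.0235) fell, and Nr1h4 rose by 0.19 (adjusted p = 0.0670). The Nr1h4 call was not kept with the shared correlation (adjusted p = 0.103), and it was made in 2 of 27 alternatives.

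**Figure D2:**
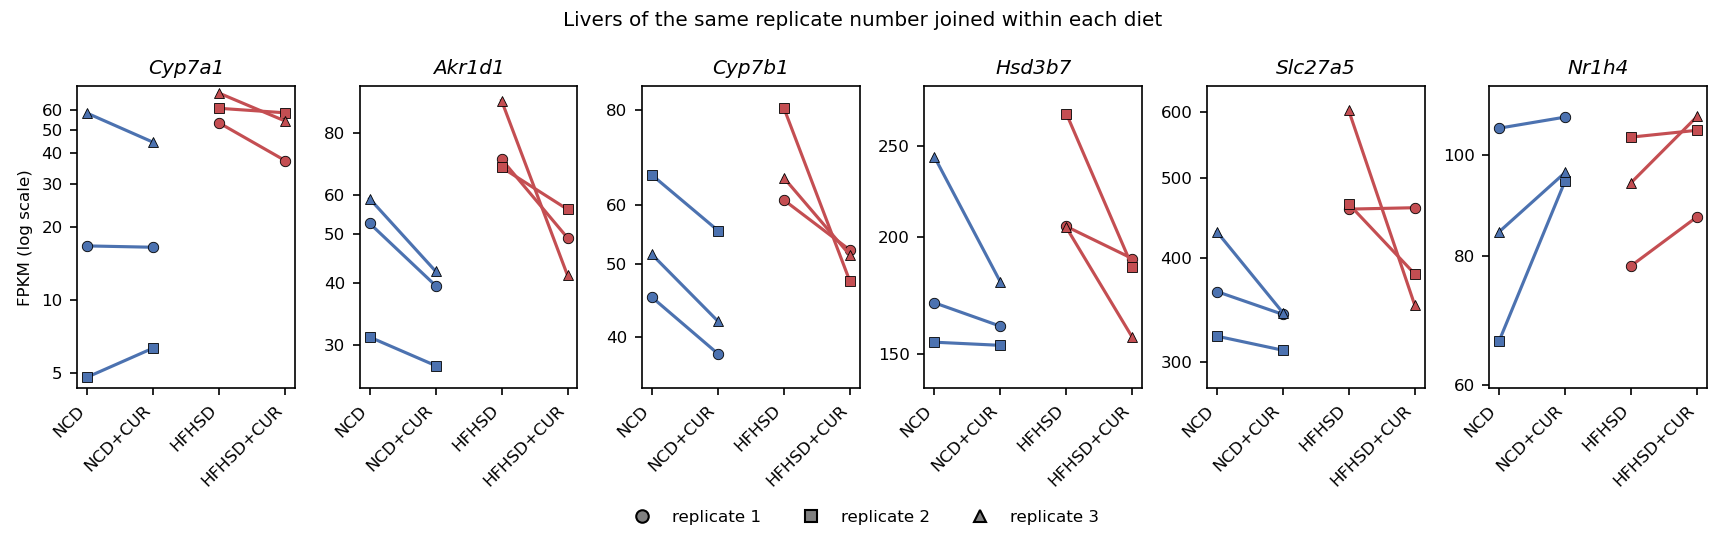
Level in FPKM (y axis, log scale, range set for each gene) of 6 genes, with lines joining livers of the same replicate number without and with CUR, chow in blue and HFHSD in red. Cyp7b1 and Akr1d1 slope down in 6 of 6 lines and Nr1h4 slopes up in 6 of 6, while the Cyp7a1 chow lines stay apart at the levels of their numbers.

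The CUR effect on HFHSD was not shown to differ from that on NCD. In the test of the interaction 0 of 10 genes passed, and 0 of 10 had an unadjusted p under 0.05, against 0% and 1.38% of all tested genes. For Akr1d1 the difference between the diets was -0.29 (95% interval -1.03 to 0.44, adjusted p = 1 by limma) and for Cyp7b1 -0.18 (95% interval -0.70 to 0.34). The HFHSD livers without CUR enter both the diet and the CUR comparison, so a rise with HFHSD and a fall with CUR share these samples. Akr1d1 shows it, at 0.74 for HFHSD against NCD and -0.66 for HFHSD+CUR against HFHSD, and its HFHSD+CUR mean of 48.9 ± 7.41 FPKM lay near the NCD mean of 47.6 ± 14.7 FPKM (SD, n = 3). For Nr0b2 and Cyp8b1 the differences of HFHSD+CUR from HFHSD were 0.09 each (95% interval -0.57 to 0.75 and -0.95 to 1.14).

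**Figure D3:**
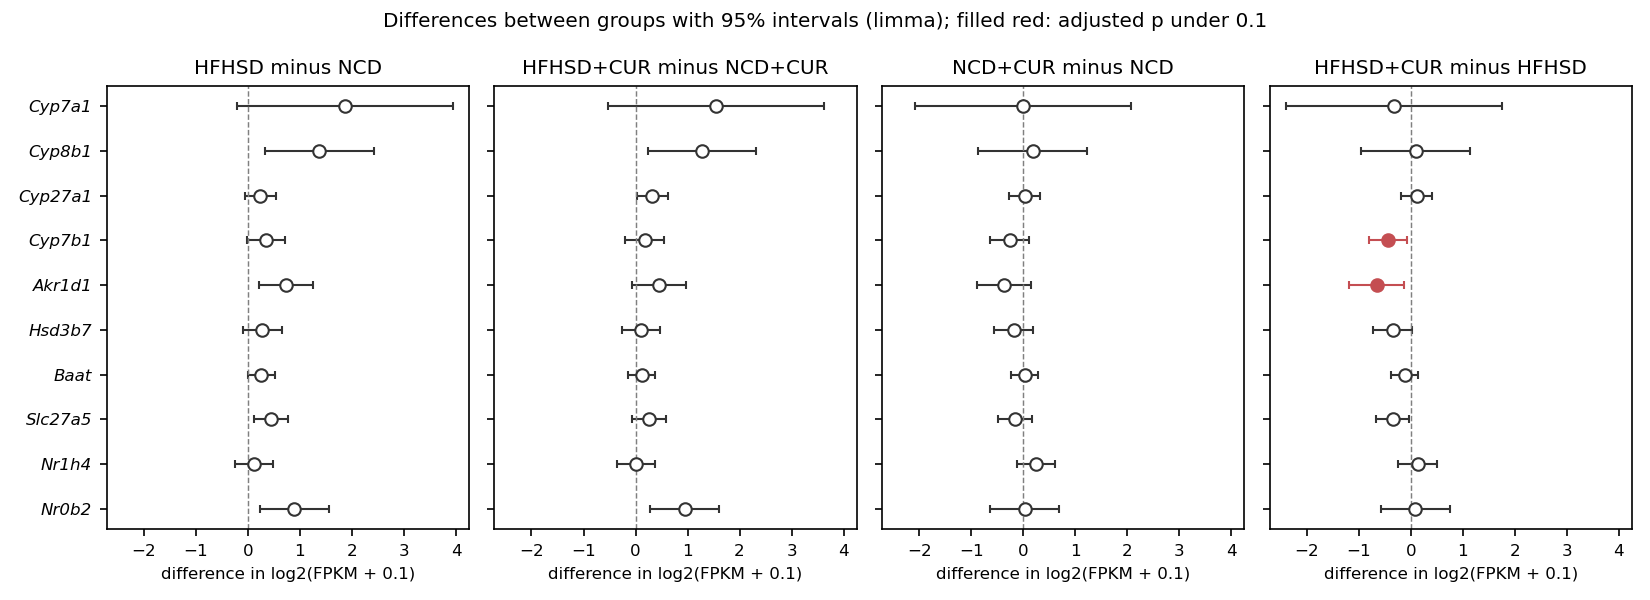
Differences between groups on the log2(FPKM + 0.1) scale (x axis) for each gene (rows), with 95% intervals from limma. Akr1d1 and Cyp7b1 in HFHSD+CUR minus HFHSD are filled red because they passed, and all 10 points lie right of 0 in both diet panels.

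Other genes of bile acid metabolism were described from a list of 12 enzymes, of which 10 were tested. With HFHSD, Cyp2a12, which hydroxylates secondary bile acids in the mouse, rose in both comparisons, by 0.63 without CUR (adjusted p = 0.0238) and by 0.53 with CUR (adjusted p = 0.0589, limma). It was 273 ± 32.6 FPKM in NCD and 422 ± 14.1 FPKM in HFHSD livers (SD, n = 3). With CUR on HFHSD, 3 of the 10 fell and 1 rose. The share that passed was near the 30.3% of all tested genes. Acox2, an oxidase of bile acid side chains, fell by 0.50, Hsd17b4, which acts in the same shortening, by 0.52 and Scp2, a sterol carrier and thiolase, by 0.57 (adjusted p = 0.0267, 0.0322 and 0.0319). Other genes of the list that act on the side chain or its CoA esters did not pass, with differences of -0.30 for Amacr and -0.08 for each of Slc27a2 and Acot8, which lie outside the rule for named genes. The gene that rose was Cyp46a1, which makes an oxysterol in neurons, by 1.10 (adjusted p = 0.0760). It was named because it was the single rise.

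Of 14 bile acid and sterol transporters, 12 were tested. Abcc3, which exports bile acid conjugates across the basolateral membrane, was 12.6 ± 3.77 FPKM in NCD, 10.9 ± 2.22 FPKM in NCD+CUR, 36.9 ± 4.54 FPKM in HFHSD and 31.6 ± 5.40 FPKM in HFHSD+CUR livers. It rose by 1.58 without CUR and by 1.53 with CUR (adjusted p = 0.0118 and 0.0126, limma), with no overlap between diets. Slco1b2, an uptake transporter, rose with HFHSD by 0.77 (adjusted p = 0.0997) and fell with CUR on HFHSD by 0.65 (adjusted p = 0.0590). With CUR on HFHSD 3 of 12 fell, near the share over all tested genes. Abcc2, the canalicular exporter of conjugates, fell by 0.76 (adjusted p = 0.0497), and Atp8b1, a flippase of the canalicular membrane, fell by 0.62 (adjusted p = 0.0159).

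Among 9 FXR target genes 8 were tested, and 0 passed in limma in either separate diet comparison (3 without CUR and 2 with CUR had an unadjusted p under 0.05). Averaged over CUR 3 of 8 rose with HFHSD, namely Osgin1 by 0.64 (adjusted p = 0.0111), Mafg, whose product also represses bile acid genes, by 0.39 (adjusted p = 0.0476) and Abcb11, the canalicular bile salt pump, by 0.33 (adjusted p = 0.0993, limma). Of all tested genes 20.5% passed in this comparison and 10.5% passed as higher. The median of the 8 was 0.24, with 6 higher and 2 lower. Slc51b, picked with its values in view, was 5.19, 3.66 and 1.06 FPKM in NCD and 2.24, 1.10 and 0.62 FPKM in HFHSD. The summed level of the 9 genes was 803 to 1082 FPKM in NCD and 836 to 965 FPKM in HFHSD. Most of this sum was Apoc2, at 658, 816 and 457 FPKM in NCD and 591, 592 and 445 FPKM in HFHSD. The sum therefore says little about the remaining genes. With CUR on HFHSD 1 of 8 fell, namely Abcc2, which is also counted among the transporters. This stands against 30.3% of all tested genes that passed and 17.2% that passed as lower.

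Of 15 regulators of bile acid genes, 0 passed in limma in either separate diet comparison (2 in each had an unadjusted p under 0.05). Averaged over CUR 3 of 15 rose with HFHSD, against 20.5% of all tested genes that passed, namely Mafg, Nr1i2, a xenobiotic receptor, by 0.38 (adjusted p = 0.0238) and Hnf4a, a hepatocyte transcription factor named because the count was small, by 0.44 (adjusted p = 0.0668). With CUR on HFHSD 3 fell and 1 rose, against 30.3% of all tested genes that passed. Nr5a2, which encodes LRH-1, a receptor needed for full Cyp8b1 expression, was 9.85, 9.42 and 11.3 FPKM in HFHSD and 4.65, 6.61 and 4.07 FPKM in HFHSD+CUR livers, with no overlap. It fell by 1.01 (adjusted p = 0.0134, limma), while Cyp8b1 differed by 0.09. Klb, the co-receptor of the FGF15 signal in hepatocytes, fell by 0.85 (adjusted p = 0.0741) and Rxra, the partner of FXR, by 0.38 (adjusted p = 0.0784), while Tfeb, a lysosomal regulator, rose by 0.37 (adjusted p = 0.0624). Klb and Rxra fall outside the rule for named genes and were picked with their values in view.

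**Figure D4:**
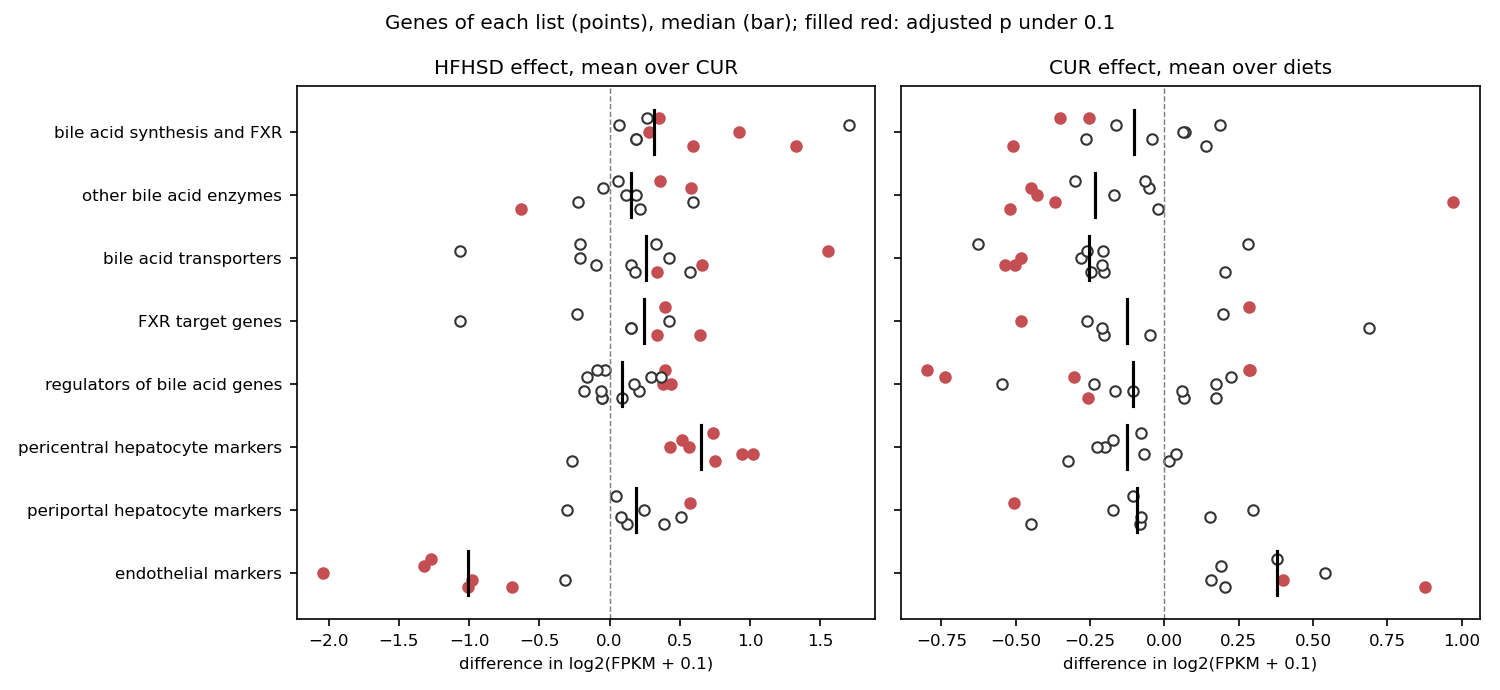
Differences on the log2(FPKM + 0.1) scale (x axis) for the genes of each list (rows), with a bar at the median and filled red points for genes that passed in limma, for HFHSD averaged over CUR (left) and CUR averaged over diets (right). The 10 bile acid synthesis and FXR genes all lie right of 0 for HFHSD with 5 filled, and 6 of the 7 endothelial markers are filled left of 0.

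Markers of cell types moved with the diet too. Of all tested genes, 4.61% passed in HFHSD against NCD and 20.5% passed averaged over CUR. Of 8 pericentral hepatocyte markers, which mark the zone where Cyp7a1 is also enriched in mouse liver, 3 rose in HFHSD against NCD, among them Cyp1a2 by 1.06 (adjusted p = 0.0259) and Glul by 0.71 (adjusted p = 0.0604, limma). Averaged over CUR 7 of 8 rose. Their summed level was 3947 to 5518 FPKM in NCD, 3476 to 4881 FPKM in NCD+CUR, 5767 to 8132 FPKM in HFHSD and 4788 to 6002 FPKM in HFHSD+CUR livers. Of 8 periportal markers 1 (Cyp2f2) rose.

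Of 8 endothelial markers 7 were tested and 5 fell in HFHSD against NCD, where 4.61% of all tested genes passed. Their summed level was 52.8 to 56.9 FPKM in NCD and 52.5 to 68.0 FPKM in NCD+CUR livers. It was 20.8 to 34.0 FPKM in HFHSD and 24.8 to 59.8 FPKM in HFHSD+CUR livers. Of 7 stellate cell markers tested 2 fell, with sums of 90.8 to 113 FPKM in NCD and 56.8 to 79.1 FPKM in HFHSD. Of 8 cholangiocyte markers 6 were tested and 1 (Aqp1) fell, 5 were lower and 4 had an unadjusted p under 0.05. Their median was -1.05, and their sums were 66.0 to 217 FPKM in NCD and 57.7 to 68.8 FPKM in HFHSD. The part of these shifts in the results for the bile acid genes was not tested.

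With CUR on HFHSD, 3 of 12 hepatocyte markers fell (Cps1, Tdo2 and Apob) and 1 rose (Apoa1), 2 of 7 endothelial markers rose (Stab1 and Stab2) and 3 of 3 B cell markers rose, against 30.3% of all tested genes that passed. Apoa1 and Stab2 were named after their values were seen, because the counts were small. The summed B cell level was 3.24 to 7.86 FPKM in HFHSD and 8.31 to 11.2 FPKM in HFHSD+CUR livers. Slc10a2, a bile acid transporter on the cholangiocyte and ileum lists, was 8.19, 8.82 and 13.7 FPKM in HFHSD livers. In HFHSD+CUR livers it was 5.09, 4.98 and 3.71 FPKM, and it fell by 1.12 (adjusted p = 0.0118, limma). Of the 6 cholangiocyte markers tested it was the 1 that fell, while 1 rose. By direction 4 of the 6 were higher and 2 were lower, so Slc10a2 does not stand for that list. Of 7 macrophage markers tested 0 passed in limma and 0 had an unadjusted p under 0.05, and the part of these markers in the falls of Akr1d1 and Cyp7b1 was not tested.

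Clock-driven genes were looked at because Cyp7a1 has a daily rhythm. Of 10 circadian factors 9 were tested, and 0 passed in HFHSD against NCD, where 4.61% of all tested genes passed. At an unadjusted p under 0.05 the count was 2, against 18.7%. Per2 rose with CUR on HFHSD by 0.54 (adjusted p = 0.0343, limma), the 1 of 9 that passed, against 30.3% of all tested genes. Nfil3 rose in HFHSD+CUR against NCD+CUR by 0.76 (adjusted p = 0.0902, limma), again 1 of 9, against 3.61%. For CUR averaged over diets 3 rose and 1 fell, against 37.9% of all tested genes. For HFHSD averaged over CUR 2 rose, against 20.5%. The summed level of the 10 factors was 201 to 269 FPKM in NCD and 243 to 254 FPKM in HFHSD livers, so the groups overlapped. A sum can hide differences of single factors between replicate numbers. Nr1d1, picked with its values in view, was 24.4, 37.7 and 56.5 FPKM in NCD livers for replicates 1, 2 and 3. In NCD+CUR it was 24.6, 40.9 and 53.7 FPKM. It was highest in replicate 3, as Cyp7a1 was, but lowest in replicate 1. Dbp and Nr1d2, also picked with their values in view, rose in the same order of replicates as Nr1d1 in both chow groups. Dbp was 74.1, 86.3 and 90.0 FPKM in NCD and 81.3, 96.8 and 114 FPKM in NCD+CUR. The remaining listed factors, Per2 among them, did not rise in this order in both chow groups. A link of clock genes to the Cyp7a1 spread on chow was not tested.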

How the data were processed

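The authors aligned the reads of poly(A)-selected, stranded libraries to mm10 with TopHat2 2.0.13 and computed FPKM for each gene and mouse with Cuffdiff 2.2.1, per the submitters' processing notes. The deposited FPKM table was the only one used. Other deposited tables hold the authors' own comparisons, enrichments and pathway analyses and were not used.

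Values were analyzed as log2(FPKM + 0.1), a pseudocount that understates changes of low genes. Genes were kept where their mean reached 1 FPKM, and these 10545 of 23997 were fitted in limma 3.58.1 (R 4.3.3) with all 12 libraries and 4 groups in one model, a variance trend and robust moderation. A gene passed at a Benjamini-Hochberg adjusted p under 0.1, two-sided, over all tested genes. No 2 libraries were identical (0 pairs). The labels do not say whether the mice of a group shared cages, so p-values measure the spread between these mice.

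Members and lists were chosen with earlier results of these data known. From lists other than the 10 genes, up to 4 genes with the smallest p in any of the 4 separate comparisons were named, and others are stated as named after their values were seen. Alternatives were other pseudocounts (1 and 0.01), another filter (a mean of 5 FPKM, or none), other scaling (quantiles or equal medians), blocks on the replicate number (over all libraries, or inside each diet), age as a covariate, array weights, plain moderation, only the groups compared, an adjusted p under 0.05, removal of GC and length trends (10077 genes, loess span 0.4) alone or with the block, and leaving out each library. The average of HFHSD over CUR and the shared correlation of same-numbered libraries were added after the data were seen. Relations between members carry no p, because same-numbered libraries resemble each other. Correlations of same-numbered libraries were 0.339, 0.300 and 0.527 on chow, 0.156, 0.350 and 0.178 on HFHSD, and 0.00341, 0.0428 and 0.236 between NCD and HFHSD. Numbers were taken as pairs where every value was over 0.1, which held within a diet and not across diets. On HFHSD this is uncertain, since 0.156 and 0.178 were below the 0.236 found across diets. This pairing comes from the data and not from the labels. Positions are from the GENCODE annotation of GRCm38. Promoters are from a set drawn from RefSeq for GRCm38.p6, and the set at hand held an entry for 6 of the 10 genes.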

Additional observations from a re-analysis of the deposited data

How the results depend on the processing

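The rise of Nr0b2 and Cyp8b1 with HFHSD averaged over CUR passed under all 25 alternatives run, with log2 differences of 0.77 to 1.14 and 1.13 to 1.61. Akr1d1 passed in 24 of 25, Slc27a5 in 20 and Cyp27a1 in 12. Over all 10 genes, comparisons and alternatives, no difference that passed in either fit turned its direction. Of 1870 values 1742 stayed on their side of the threshold, 70 newly passed and 58 no longer passed. Among the 1742 were 78 that changed sign without passing in either fit. Most of the 1870 values belong to differences that did not pass in the main fit, so they could not lose a call. For CUR on HFHSD, Akr1d1 passed in 19 and Cyp7b1 in 18 of 28 alternatives. For CUR averaged over diets, Akr1d1 passed in 24, Cyp7b1 in 22 and Slc27a5 in 15 of 27. In the following, counts are of the 10 genes that passed. For CUR on HFHSD the count of 2 became 0 with no filter (8.06% of all genes passed) or at an adjusted p under 0.05 (19.1%), 1 with quantile normalization, equal medians or GC and length removed, and 4 with age as a covariate (35.3% of all tested genes). With the replicate block within each diet it was 4, also together with GC and length removal or as a shared correlation, and averaged over diets 5 with the block, alone or with that removal. For CUR averaged over diets it was 0 with no filter (13.1%). For HFHSD without CUR it was 5 with age (19.3% of all tested genes passed, against 4.61%), 8 with array weights (31.9%) and 3 with the block over all 12 libraries (8.31%). For HFHSD with CUR it was 3 (15.8%, against 3.61%), 1 (12.9%) and 2 (7.57%) in the same order. For CUR on NCD it was 1 with array weights (33.2%), which gave NCD replicate 1 a weight of 4.63. For HFHSD averaged over CUR it was 2 with no filter (5.15%), 8 with array weights (41.6%) and 3 with the shared correlation of the replicate block. Leaving out 1 library at a time gave 0 to 4 for CUR on HFHSD, 1 to 4 for CUR averaged over diets, 0 to 5 for HFHSD without CUR, 0 to 1 for HFHSD with CUR, 3 to 7 for HFHSD averaged over CUR, and 0 for CUR on NCD and the interaction. Each of the highest counts for CUR on HFHSD (4), HFHSD without CUR (5) and HFHSD averaged over CUR (7) came without NCD replicate 3. In those fits 32.6%, 16.6% and 28.1% of all tested genes passed, against 30.3%, 4.61% and 20.5% in the main fit. HFHSD averaged over CUR gave 3 without HFHSD replicate 3 (16%) or HFHSD+CUR replicate 1 (15.9%). The highest count for CUR averaged over diets (4) came without NCD replicate 2 (44.4% of all tested genes). The lowest (1) came without NCD+CUR replicate 1 (34.3%) or HFHSD+CUR replicate 3 (29.4%). For CUR on HFHSD the count was 0 without HFHSD replicate 2 (20% of all tested genes) or 3 (16.4%) or HFHSD+CUR replicate 3 (11.6%). For HFHSD with CUR it was 1 without HFHSD replicate 1 (2.17%) or NCD+CUR replicate 3 (5.98%). The cause of these shifts was not tested. The block within each diet was not run for the diet comparisons, because a number nested in a diet would remove the spread between mice. The block over all 12 libraries joins numbers across diets, where they were not found to pair, so its diet counts decide nothing. The number of fragments behind an FPKM value is unknown, so the depth behind these calls could not be weighed.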

Other observations

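The genes whose levels over the 12 livers were most like those of Cyp7a1 on the log2 scale were Nrep (Pearson r = 0.985), Otud4 (0.957), Ces1d (0.952), Slc17a2 (0.949) and Pon1 (0.946), out of 10545 tested genes. Nrep was 5.19, 3.14 and 8.99 FPKM in NCD and 4.62, 3.21 and 8.69 FPKM in NCD+CUR livers, the same order of replicate numbers as Cyp7a1, and 8.04 to 11.6 FPKM on HFHSD. For Cyp8b1 they were Mup19 (0.947), Rarres1 (0.944), Cfd (0.937), D130020L05Rik (0.934) and Atg7 (0.926). Mup19, a major urinary protein with near-identical copies, was 57.3 to 104 FPKM on chow and 146 to 519 FPKM on HFHSD, and reads of its copies may have been split. For Nr0b2 they were Dcun1d2 (0.959), Trib1 (0.952), Nudt7 (0.950), Acp5 (0.947) and Chaf1b (0.935). These correlations describe 12 libraries that share diet groups and replicate numbers, and no test was made.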
